A study of Mus musculus with 8 samples.

Results

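The genes described here are 45 named components of the lysosome in mouse BV-2 microglia: 16 genes of the V-ATPase proton pump (6 of its membrane sector V0, 8 of its cytosolic sector V1 and 2 accessory proteins), 9 cathepsins and legumain, 7 glycosidases, 6 lipid hydrolases, activators and cholesterol carriers, 5 membrane proteins and the transcription factors Tfeb and Tfe3. They were listed by name, and all 45 were found by symbol among the 46078 genes of the count table. Each of the 45 also passed the filter on low counts in every comparison below, so no member drops out of any count.

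The lysosome is the acidic compartment in which cells break down proteins, glycans and lipids taken up from outside or delivered by autophagy. The V-ATPase couples ATP hydrolysis in its V1 sector to proton transport through its V0 sector, and the acidity it makes is needed by the hydrolases inside. Microglia, the resident phagocytes of the brain, are rich in cathepsins and other lysosomal enzymes, and TFEB and TFE3 are known to drive many lysosomal genes by binding a short E-box element in their promoters.

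BV-2 cells are an immortalized mouse microglial line, and their poly(A) RNA was sequenced in 4 groups with 2 biological replicates each. Every group spent 4 hours without serum. Control cells received solvent, and LPS cells received lipopolysaccharide, a bacterial endotoxin, at 100 ng/mL over 20 hours. Cells of the AGE+LPS group were given aged garlic extract (AGE, 0.5% v/v), and those of the FruArg+LPS group 3 mM FruArg, an arginine derivative found in that extract, each 1 hour before the same LPS dose. No group received AGE or FruArg without LPS, so the effect of either agent on resting cells cannot be told apart from its effect on the LPS response. Replicate 1 of each group was sequenced in lane 3 and replicate 2 in lane 6, so a replicate number also names a lane.

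Counts per library differed widely. The Control libraries held 2707500 and 8995052 counts (replicates 1 and 2), the LPS libraries 8720784 and 12069807, the AGE+LPS libraries 6795464 and 6669072, and the FruArg+LPS libraries 4692715 and 5822113. Levels are given below as CPM, the counts scaled to a common library total, with TMM factors over the 8 libraries, and 3 counts correspond to between 0.276 and 0.934 CPM. Control replicate 1 is therefore the shallowest library of the series. FruArg+LPS replicate 1 had the fewest genes detected, 14607, beside 16341 in Control replicate 1 and 17057 in FruArg+LPS replicate 2. Its 10 most abundant genes also took the largest share of counts, 14.9%.

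The label of the cells held against their markers in part. Of 11 microglia and macrophage markers, at least 9 held over 3 counts in every library, and Adgre1 was the most abundant, at 626 and 672 CPM in Control and 1552 and 1758 CPM in LPS. Of the markers of resting brain microglia, Tmem119 was near the floor, at 0.311 and 0.375 CPM in Control, and P2ry12 was low, at 6.22 and 9.27 CPM in Control and 1.62 and 1.65 CPM in LPS. Of the 10 markers tested in LPS against Control 1 rose (Adgre1, 1.39) and 5 fell: Cx3cr1 (-3.45), P2ry12 (-2.23), Trem2 (-1.37), Itgam (-1.08) and Tyrobp (-0.86). Of all genes 16.3% rose and 14.3% fell. The value for Cx3cr1 rests on few counts, at 0.5 and 0.184 CPM in LPS. The 5 neuron, 5 astrocyte, 5 oligodendrocyte and 5 fibroblast markers each summed to at most 2.18 CPM in any library, and none of them passed the count filter in LPS against Control. All 5 LPS response markers rose in LPS cells, with a median log2 fold change of 8.08, among them Il6, at 1.87 and 0.562 CPM in Control and 690 and 1244 CPM in LPS.

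The 45 genes took a sizeable share of the RNA. Their counts made up 4.19% and 4.64% of the Control libraries, 4.03% and 3.89% of the LPS libraries, 3.56% and 3.57% of the AGE+LPS libraries, and 3.97% and 4% of the FruArg+LPS libraries. Per kilobase of exon, the aspartic protease Ctsd was the highest member in Control, with a group mean of 2541 CPM per kb, ahead of the carboxypeptidase Ctsz at 2015 and the saposin precursor Psap at 1221. Legumain (Lgmn), Ctsb, Ctsl and Ctss followed at 736, 602, 515 and 486 CPM per kb. The proton pump's catalytic subunit Atp6v1a reached 269 CPM per kb, the highest among the V-ATPase members, while the isoform gene Atp6v0a1 reached 21. Tfeb and Tfe3 were the lowest of all 45, at 2.43 and 2.25 CPM per kb. In LPS cells Ctsz took the first place, at 4227 CPM per kb, with Ctsd at 1801 and Psap at 1517.

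**Figure D1:**
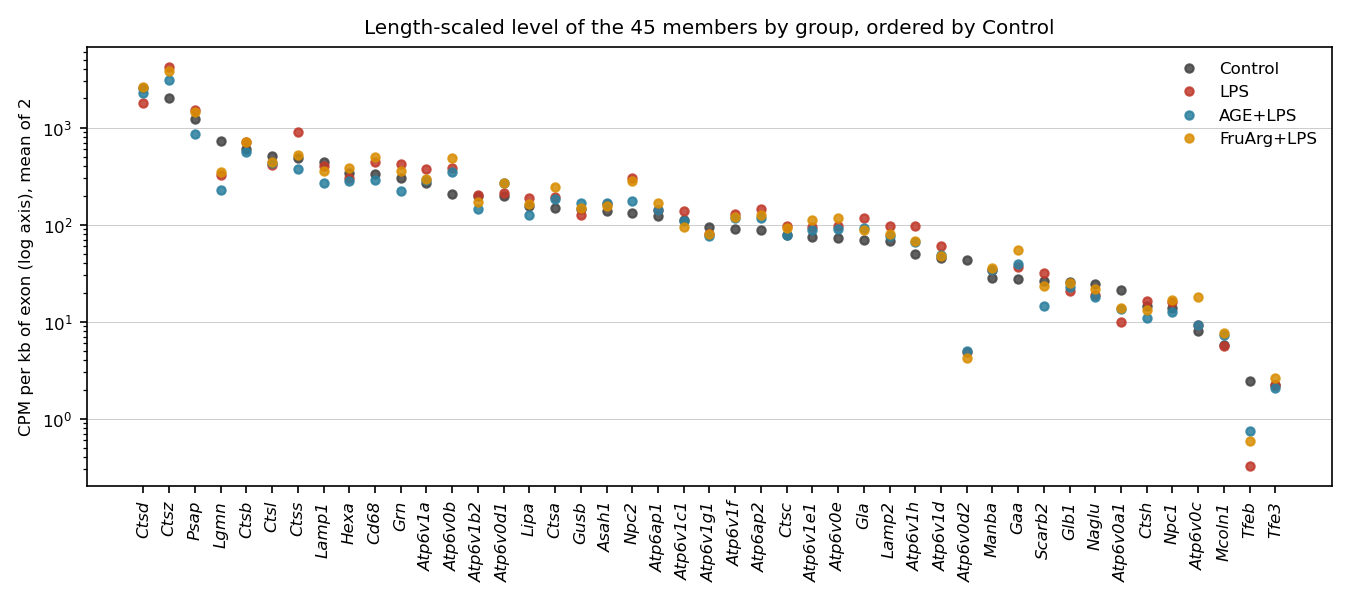
Mean level of each of the 45 members in each group, in CPM per kilobase of exon on a log axis, ordered by the Control mean; each dot is the mean of 2 libraries, coloured by group, and no error is drawn. Ctsd, Ctsz and Psap are highest in Control, Tfeb and Tfe3 lowest, and Atp6v0d2 and Tfeb show the widest gaps between Control and the 3 LPS groups.

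Some of these genes share sequence with others, which makes their counts less certain. Ctsd shares 34.4% of its exon bases with Gm49369 on the same strand, Ctsl shares 26.8% with the antisense Gm47123, and Ctsb and Hexa each share 12.8% with a coding gene on the opposite strand (Fdft1 and Tmem202). Atp6v0b overlaps the antisense Gm12841 over 11.8% of its exon bases, Ctsa overlaps Pltp over 10.5%, and Lamp1 overlaps Grtp1 over 9.3%. Atp6v0c has 2 named pseudogenes, and reads from it could also match those copies. Whether the counting used strand is not stated, so reads of antisense partners cannot be told apart.

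The comparison of LPS with Control asks how the lysosome's genes respond to the endotoxin. The largest changes were losses of the V0 isoform Atp6v0d2 and the transcription factor Tfeb. The protease Lgmn and the V0 isoform Atp6v0a1 fell, while the cholesterol carrier Npc2, the proteases Ctsz and Ctss and the pump subunits Atp6v1h and Atp6v0b rose. Genes with an adjusted p below 0.05 and a log2 fold change of 1 or more in either direction, the rule for a differentially expressed gene (DEG), included 3 members that rose, beside 11.5% of all 12888 genes tested, and 4 that fell, beside 11.1%. Without the minimum on the fold change, 7 members rose (16.3% of all genes) and 4 fell (14.3%). Without the block the members' share of calls was thus close to or below that of all genes. With the replicate block it was above it for increases (37.8% of the members) and below it for decreases (13.3%). The block with no minimum on the fold change, used here and below, was a setting chosen after seeing the data. In bulk RNA, fewer cells of a type and less RNA per cell cannot be told apart, here or in the later comparisons.

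Within the V0 sector, the isoforms Atp6v0d2 and Atp6v0a1 fell while the proteolipid Atp6v0b rose. Atp6v0d2, a d-subunit isoform known from osteoclasts and macrophages (chr4:19876841-19922605, minus strand, GRCm38), stood at 89.9 and 146 CPM in Control, 12.5 and 14 in LPS, and 13.6 and 13.3 in AGE+LPS. In FruArg+LPS it held 53 and 56 counts, a mean of 11.4 CPM. The 6 libraries with LPS lay close together and far below both Control libraries. Its log2 fold change in LPS against Control was -3.12 ± 0.28 (SE, n = 2 libraries a group, edgeR adjusted p = 7.1e-05), an 8.72-fold lower level. The ratio was -2.75 within lane 3 and -3.30 within lane 6. Its paralog Atp6v0d1, the widely expressed d isoform, stood at 333 and 370 CPM in Control and 399 and 356 in LPS, with overlapping groups and a log2 difference of 0.14 ± 0.20 (edgeR adjusted p = 0.64).

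Atp6v0a1, an isoform of the large subunit a that forms part of the proton path (chr11:101009452-101063719, plus strand), stood at 135 and 141 CPM in Control, 67.5 and 62.8 in LPS, 90.4 and 85.1 in AGE+LPS, and 104 and 78.3 in FruArg+LPS. Both LPS libraries were below all other libraries. It fell by 1.05 on the log2 scale (SE 0.19, edgeR adjusted p = 0.0033). Atp6v0b, a proteolipid of the rotating ring, went the other way, from 450 and 391 CPM in Control to 926 and 636 in LPS, 844 and 592 in AGE+LPS, and 1189 and 815 in FruArg+LPS. Its lowest LPS library still lay above both Control libraries, and replicate 1 was higher than replicate 2 in each of the 4 groups. The log2 fold change was 0.93 ± 0.25 (edgeR adjusted p = 0.019). Tcirg1, the a3 isoform, which was not among the 45, also rose, from 254 and 292 CPM in Control to 629 and 515 in LPS (1.10 ± 0.21, edgeR adjusted p = 0.0043), so that the a1 and a3 isoforms changed in opposite directions.

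In the V1 sector 7 of 8 members had a positive log2 fold change, with a median of 0.40 beside 0.02 for all genes tested, and Atp6v1h alone passed the test. Atp6v1h, the regulatory subunit H (chr1:5070018-5162529, plus strand), stood at 407 and 564 CPM in Control, 817 and 1094 in LPS, 529 and 777 in AGE+LPS, and 609 and 706 in FruArg+LPS. The LPS libraries were above every other library, and replicate 2 was higher than replicate 1 in each group. The log2 fold change was 1.01 ± 0.25 (edgeR adjusted p = 0.014), 1.00 within lane 3 and 0.95 within lane 6. The accessory protein Atp6ap2, also called the prorenin receptor, rose by 0.74 ± 0.22 (edgeR adjusted p = 0.028), from 224 and 242 CPM to 328 and 433.

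Of the cathepsins Ctsz and Ctss rose without the block and none fell, while Lgmn fell. Ctsz, a carboxypeptidase (chr2:174427493-174439039, minus strand), stood at 2852 and 2954 CPM in Control, 6627 and 5555 in LPS, 4766 and 4194 in AGE+LPS, and 5082 and 6037 in FruArg+LPS, so the 6 libraries with LPS were all above both Control libraries. Its log2 fold change was 1.10 ± 0.27 (edgeR adjusted p = 0.012). Ctss, which cleaves the invariant chain in antigen-presenting cells (chr3:95526786-95556403, plus strand), stood at 564 and 756 CPM in Control, 1008 and 1440 in LPS, 420 and 595 in AGE+LPS, and 596 and 828 in FruArg+LPS. The LPS libraries were above all 6 others, which overlapped among themselves. Its log2 fold change was 0.93 ± 0.26 (edgeR adjusted p = 0.025). Cd74, the invariant chain itself, rose as well, from 128 and 139 CPM to 419 and 290 (1.44 ± 0.23, edgeR adjusted p = 0.0016).

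Lgmn, a protease that cuts after asparagine (chr12:102394084-102439813, minus strand), stood at 1640 and 1779 CPM in Control, 803 and 705 in LPS, 539 and 528 in AGE+LPS, and 821 and 808 in FruArg+LPS. Both Control libraries were above every other library, and the AGE+LPS libraries were the lowest. It fell by 1.14 on the log2 scale in LPS (SE 0.23, edgeR adjusted p = 0.0047). Ctsd stood at 5953 and 5996 CPM in Control, 4445 and 4025 in LPS, 5258 and 5436 in AGE+LPS, and 6685 and 5756 in FruArg+LPS. The LPS libraries were the lowest of the 8, but the difference of -0.46 ± 0.26 did not pass without the replicate number as a block (edgeR adjusted p = 0.22 without it and 0.011 with it). Ctsa, Ctsb, Ctsc, Ctsh and Ctsl had log2 differences between -0.28 and 0.42 and did not pass without the block.

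Among the 7 glycosidases, alpha-galactosidase Gla alone passed. Gla stood at 201 and 256 CPM in Control, 339 and 433 in LPS, 258 and 339 in AGE+LPS, and 213 and 359 in FruArg+LPS. The LPS libraries were above both Control libraries, and the FruArg+LPS libraries overlapped with those of both groups. It rose by 0.79 ± 0.22 (edgeR adjusted p = 0.026). The glycosidases' median log2 fold change was -0.11.

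All 6 lipid hydrolases, activators and carriers had a positive log2 fold change, with a median of 0.33, and Npc2 passed. Npc2, which carries cholesterol in the lysosomal lumen (chr12:84754562-84773152, minus strand), stood at 681 and 749 CPM in Control, 1698 and 1603 in LPS, 1017 and 904 in AGE+LPS, and 1570 and 1525 in FruArg+LPS. The groups did not overlap: Control was lowest, AGE+LPS came next, then FruArg+LPS, then LPS. The log2 fold change in LPS was 1.24 ± 0.22 (edgeR adjusted p = 0.0028), a 2.37-fold higher level. Of the 5 membrane proteins none passed by edgeR without the block in this comparison. In that count of 0, none reached an adjusted p below 0.05 by DESeq2 either, and the edgeR log2 differences lay between -0.11 and 0.58.

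Tfeb, a master regulator of lysosomal genes (chr17:47737030-47792419, plus strand), stood at 14.9 and 12.6 CPM in Control, 2 and 1.65 in LPS, 6.13 and 2.42 in AGE+LPS, and 3.21 and 3.42 in FruArg+LPS. The Control libraries were above all 6 libraries with LPS, and both LPS libraries were the lowest. Its log2 fold change in LPS was -2.87 ± 0.37 (edgeR adjusted p = 4.4e-04), a 7.3-fold lower level that rests on 16 and 18 counts in the LPS libraries. Its paralog Tfe3 stood at 21.5 and 20.1 CPM in Control and 20 and 21.3 in LPS, with overlapping groups and a log2 difference of 0.03 ± 0.24 (edgeR adjusted p = 0.93). Tfec, another factor of the same family and not among the 45, rose from 41.7 and 56.2 CPM to 99 and 120 (1.19 ± 0.23, edgeR adjusted p = 0.0039).

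**Figure D2:**
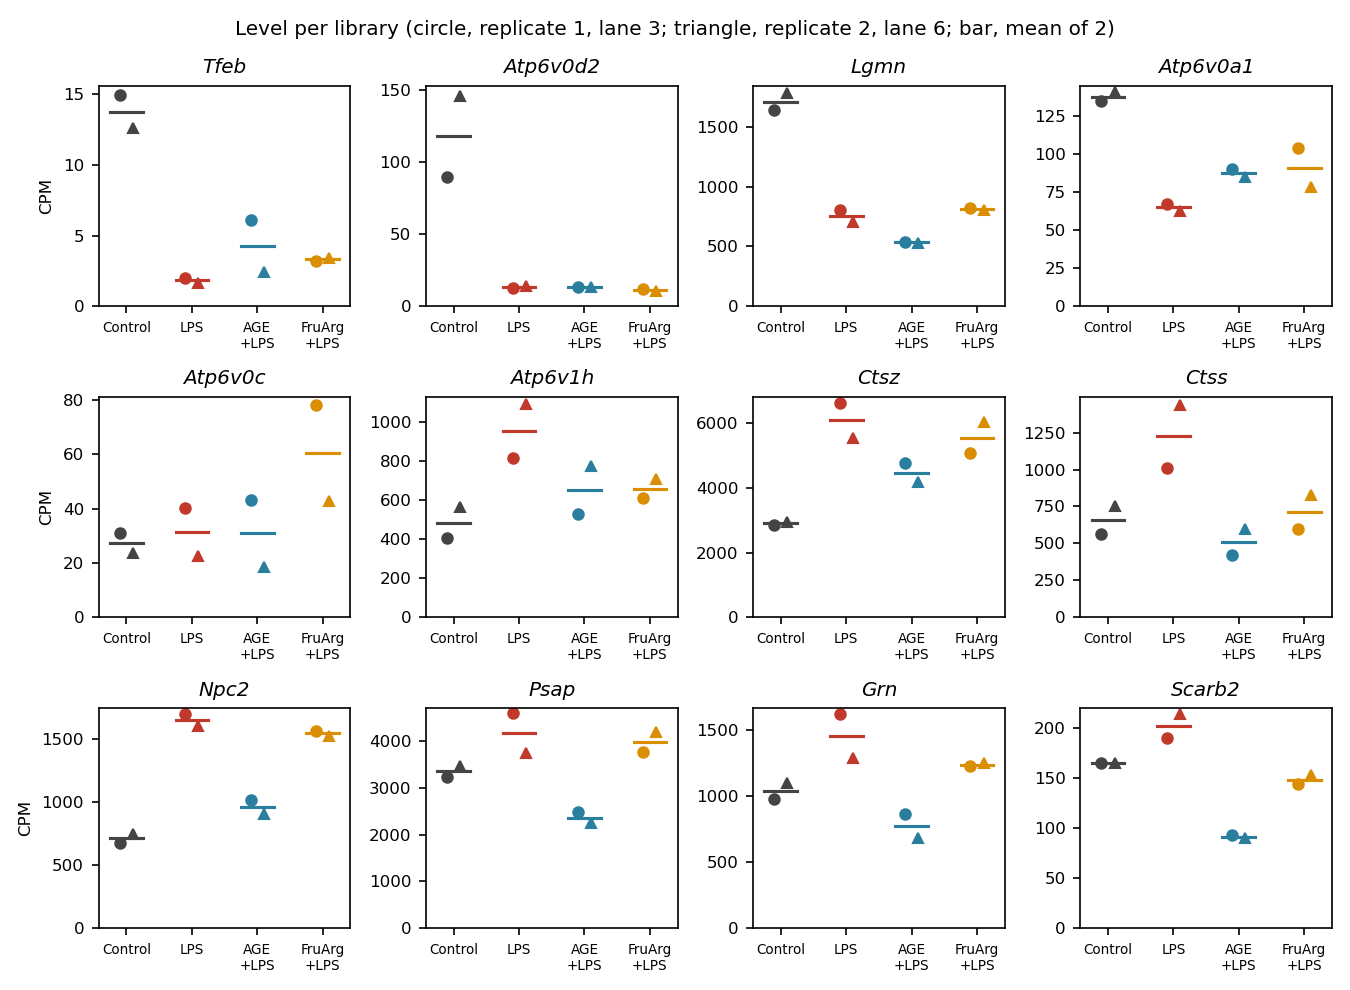
CPM of 12 members in each library, by group, on linear axes that start at 0; circles are replicate 1 (lane 3), triangles replicate 2 (lane 6), and the bar is the mean of 2 libraries. Tfeb, Atp6v0d2 and Lgmn are high in Control alone, and Psap, Grn, Npc2 and Scarb2 are lower in both AGE+LPS libraries than in both LPS libraries.

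Scaling and single libraries limit this comparison. Scaling by library size alone moved the median log2 fold change of all genes from 0.02 to -0.40 and that of the 45 from 0.31 to -0.12, so the members stood above the rest by a similar amount on either scale while the direction of their median flipped. With that scaling 1 member rose (Npc2), beside 9.59% of all genes, and 7 fell, beside 28.7%, in place of 7 and 4. The medians of the V0, V1, cathepsin, lipid and membrane groups turned from positive to negative. Without Control replicate 1, the shallowest library, the median of the 45 was 0.15, and 5 of the 11 called members still passed, namely the 4 that fell and Npc2. Without Control replicate 2, 8 still passed. Gla and Atp6ap2 are named beyond the fixed rule, after their values were seen.

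With the replicate number as a block, more of the 45 passed: 17 rose, beside 24.9% of all genes, and 6 fell, beside 22.9%. The 17 included 5 of the 8 V1 subunits and 2 of the 6 V0 subunits. Within lanes, 28 members were higher in LPS in both lanes, 11 lower in both and 6 mixed. Lane counts, here and in the later comparisons, were made for the members only, with no share of all genes to set beside them.

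The comparison of AGE+LPS with LPS asks what the garlic extract changes in stimulated cells. The lipid and membrane groups stood lowest relative to LPS: Scarb2, Grn, Psap and Npc2 were lower in both AGE+LPS libraries than in both LPS libraries, as was Ctss. By the edgeR test without the block none of the 45 was a DEG, and 0.796% of all 12317 genes were. In that count of 0, 9 members had an unadjusted p below 0.05, beside 17.8% of all genes, and 5 had an adjusted p below 0.05 by DESeq2 (Ctss, Scarb2, Grn, Psap and Npc2, all lower), as did 621 of 21850 genes. With the replicate block, 22 of the 45 fell, beside 21.0% of all genes, and 6 rose, beside 19.3%. Fewer passed in the fit of all 8 libraries with the block: 11 members fell and 0 rose by edgeR, beside 2347 of 12873 genes in either direction. There 26 members had an unadjusted p below 0.05, beside 30.9% of all genes. DESeq2, fitted on this pair without the block, also called 0 higher. By the DEG rule with the block, 3 members passed (Tfeb higher, Ctss and Scarb2 lower), beside 9.73% of all genes. The members' median log2 difference was -0.12, beside -0.00 for all genes tested, and between -0.27 and -0.19 with 1 library left out. Within lanes 28 members were lower in both lanes, 8 higher in both and 9 mixed.

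In the fit of this pair with the block, the share of the 45 that fell was larger than that of all genes. That fit with no minimum on the fold change was chosen after seeing the data, and without the block no member passed by edgeR. The counts by role below are from the fit with the block, and differences between roles were not tested. In the lipid group 5 of 6 fell with the block, with a median log2 difference of -0.69, and in the membrane group 4 of 5 fell and 1 rose. Of the cathepsins and legumain 6 of 9 fell and 1 rose, with a median of -0.36. Of the V1 sector 5 of 8 fell, and all 8 had negative log2 differences. Of the V0 sector 2 of 6 rose and none fell with the block, a count of 0 by edgeR that was also 0 by DESeq2. No member rose in the fit of all 8 libraries with the block. Of the glycosidases 1 rose and 1 fell. Scaling by library size moved the median of all genes from -0.00 to 0.15, and with it the median of the 45 turned to 0.03, while those of the lipid, membrane, cathepsin and V1 groups stayed negative.

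Ctss and Scarb2 had the largest negative differences. Ctss fell with the block by 1.27 on the log2 scale (SE 0.10, edgeR adjusted p = 2.3e-21), against an adjusted p of 0.082 without the block and between 2.3e-21 and 0.091 over the alternatives. Within lanes its log2 ratio was -1.26 and -1.27. Scarb2 (also LIMP-2), the membrane protein that carries glucocerebrosidase to the lysosome (chr5:92441314-92506833, minus strand), stood at 165 and 165 CPM in Control, 190 and 214 in LPS, 93.3 and 90.1 in AGE+LPS, and 144 and 153 in FruArg+LPS. The AGE+LPS libraries were below all 6 others, Control included. Its log2 difference from LPS was -1.13 ± 0.10 with the block (edgeR adjusted p = 7.6e-18) and -1.14 ± 0.20 without it (edgeR adjusted p = 0.057).

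The lipid group followed. Grn, the precursor of the granulins (chr11:102430315-102437048, plus strand), stood at 980 and 1104 CPM in Control, 1623 and 1294 in LPS, 867 and 681 in AGE+LPS, and 1229 and 1254 in FruArg+LPS. Psap, from which the saposins that activate sphingolipid breakdown are cut (chr10:60277627-60302597, plus strand), stood at 3240 and 3460 CPM in Control, 4589 and 3737 in LPS, 2476 and 2251 in AGE+LPS, and 3772 and 4200 in FruArg+LPS. For both genes the AGE+LPS libraries were the lowest of the 8. Grn fell with the block by 0.91 on the log2 scale (SE 0.10, edgeR adjusted p = 8.3e-14, and 0.12 without the block). Psap fell with the block by 0.81 (SE 0.10, edgeR adjusted p = 6.5e-11, and 0.15 without the block). Npc2 fell with the block by 0.78 (SE 0.10, edgeR adjusted p = 6.0e-11, and 0.13 without the block), to a level still above both Control libraries.

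Smaller decreases with the block were seen for the acid lipase Lipa (-0.61), the membrane glycoproteins Lamp1 (-0.61) and Cd68 (-0.59), and the pump subunit Atp6v1h (-0.56). Lamp1, a main glycoprotein of the lysosomal membrane, stood at 1255 and 1126 CPM in Control, 1144 and 1008 in LPS, 823 and 603 in AGE+LPS, and 1043 and 875 in FruArg+LPS, so the AGE+LPS libraries were the lowest. Lgmn, already lower in LPS, was lower again in AGE+LPS (-0.49 ± 0.10 with the block, edgeR adjusted p = 1.2e-05). Ctsc and Lamp2, which also fell with the block, turned to log2 differences of 0.02 and 0.05 in the fit without LPS replicate 2.

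The 6 members that rose with the block were Tfeb, Atp6v0a1, Gusb, Mcoln1, Atp6v0d1 and Ctsd, and none of them passed without it. None passed in the fit of all 8 libraries with the block either, where their log2 differences kept their sign. Tfeb had a log2 difference of 1.14 ± 0.40 with the block (edgeR adjusted p = 0.017) and 1.24 ± 0.56 without it (edgeR adjusted p = 0.31). Its value in AGE+LPS rests largely on replicate 1, at 6.13 CPM against 2.42 CPM in replicate 2, and the log2 ratio was 1.25 in lane 3 and 0.37 in lane 6. Tfe3 differed by -0.12 ± 0.24 (edgeR adjusted p = 0.85). Atp6v0a1 differed by 0.43 ± 0.11 with the block (edgeR adjusted p = 4.9e-04), 0.42 in lane 3 and 0.43 in lane 6. Gusb, a beta-glucuronidase, stood at 610 and 550 CPM in LPS and 781 and 750 in AGE+LPS, without overlap. It differed by 0.40 ± 0.10 with the block (edgeR adjusted p = 3.1e-04). Mcoln1, the lysosomal calcium channel TRPML1, stood at 47.4 and 38.3 CPM in LPS and 62.9 and 46.8 in AGE+LPS, with overlap (0.35 ± 0.12 with the block, edgeR adjusted p = 0.012). Atp6v0d1 stood at 399 and 356 CPM in LPS and 493 and 461 in AGE+LPS, without overlap (0.34 ± 0.10 with the block, edgeR adjusted p = 0.0022).

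**Figure D3:**
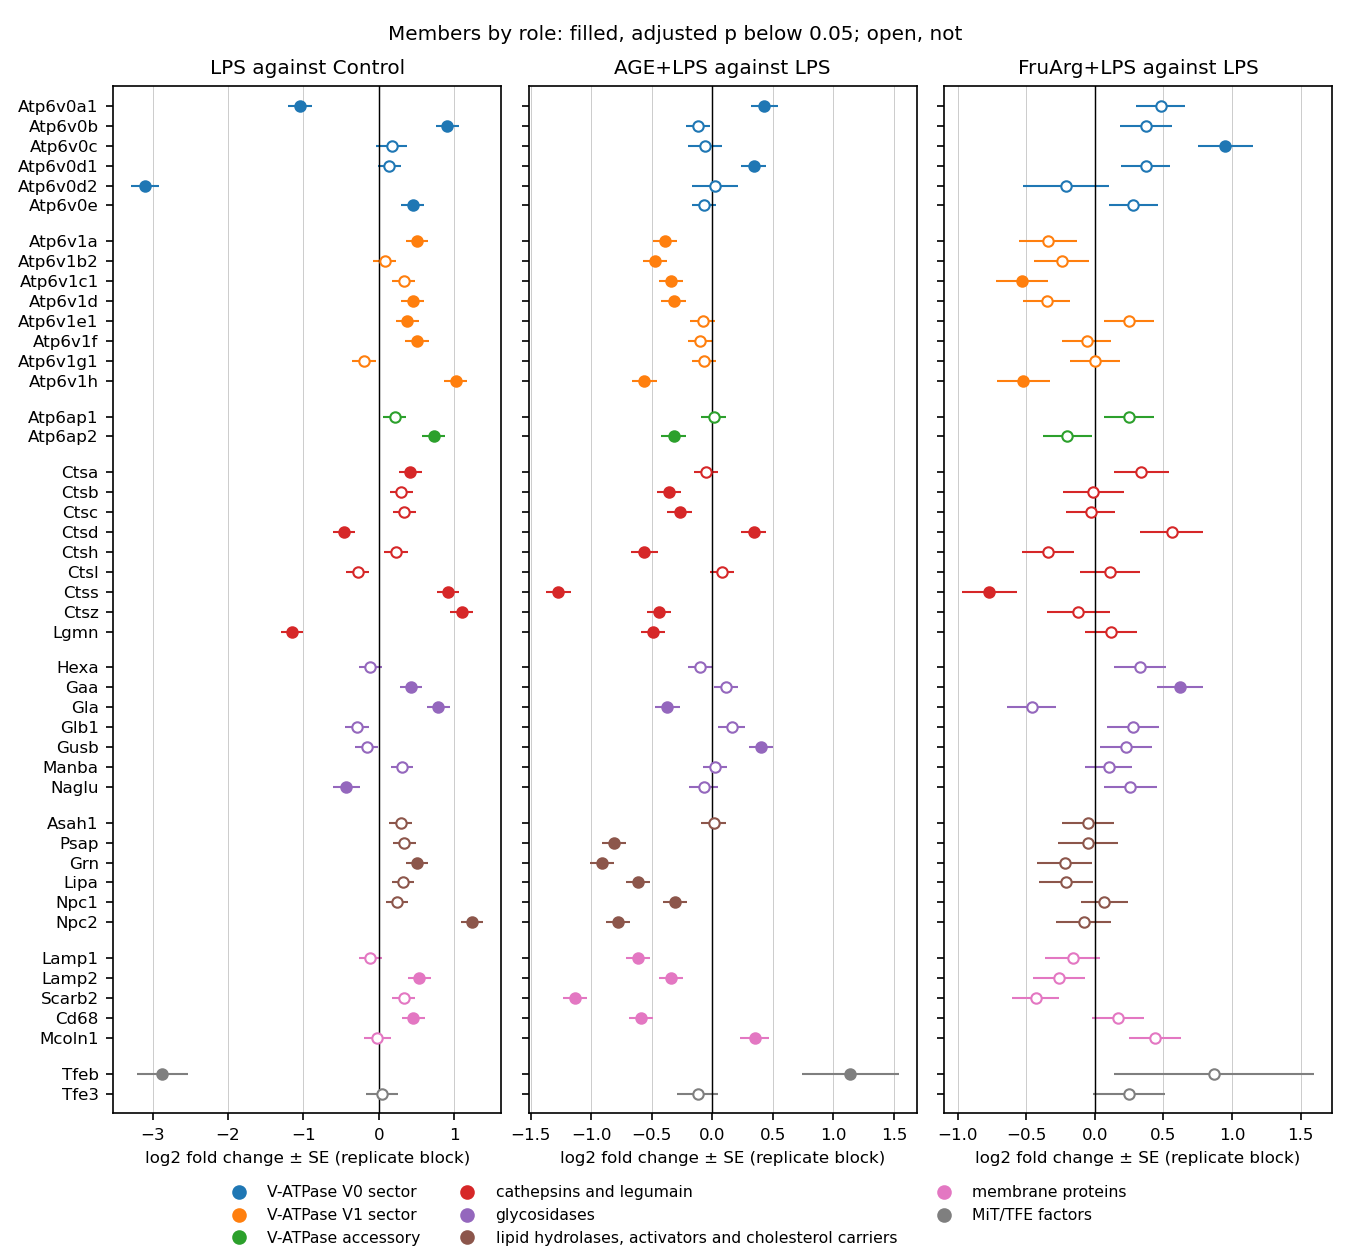
Log2 fold change of each of the 45 members, grouped and coloured by role, in LPS against Control, AGE+LPS against LPS and FruArg+LPS against LPS; points are edgeR estimates with the replicate block, bars are their SE, filled points have an adjusted p below 0.05, and the horizontal scales differ. Atp6v0d2 and Tfeb are far to the left in the first panel. In the second panel 22 filled points lie left of 0, where 21.0% of all genes fell, against 3 in the third, where 9.36% fell. In the fit of all 8 libraries with the block the counts left of 0 are 11 and 5. Scaling by library size moves the median of all genes to -0.40 in the first panel and to 0.15 in the second.

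The comparison of FruArg+LPS with LPS asks the same of the pure compound. By edgeR without the block none of the 45 was a DEG, and 0% of all 12071 genes were. In that count of 0, 3 members had an unadjusted p below 0.05, beside 12.8% of all genes, and DESeq2 called 0 of the members, beside 204 of 21303 genes. With the block 2 of the 45 rose, beside 8.23% of all genes, and 3 fell, beside 9.36%. In the fit of all 8 libraries with the block 4 rose and 5 fell, beside 2478 of 12873 genes in either direction. The members' median log2 difference of -0.01 equalled that of all genes, and with 1 library left out it ran from -0.01 to 0.08. Within lanes 22 members were higher in both lanes, 15 lower in both and 8 mixed.

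The 2 members that rose with the block were Atp6v0c and Gaa. Atp6v0c, the main proteolipid of the V0 ring (chr17:24163866-24169702, minus strand), stood at 31.1 and 23.6 CPM in Control, 40.2 and 22.5 in LPS, 43.4 and 18.6 in AGE+LPS, and 78.2 and 42.9 in FruArg+LPS. Both FruArg+LPS libraries were above both LPS libraries, by a narrow margin for replicate 2 against LPS replicate 1, and replicate 1 was the higher one in each group. The log2 difference was 0.95 ± 0.20 with the block (edgeR adjusted p = 2.2e-04) and 0.96 ± 0.38 without it (edgeR adjusted p = 0.35), with 0.94 in lane 3 and 0.90 in lane 6. Gaa, which degrades glycogen in the lysosome (chr11:119267887-119285454, plus strand), stood at 143 and 119 CPM in Control, 205 and 144 in LPS, 213 and 161 in AGE+LPS, and 273 and 252 in FruArg+LPS. The FruArg+LPS libraries were the highest of the 8. The log2 difference was 0.62 ± 0.17 with the block (edgeR adjusted p = 0.0078, and 0.38 without it).

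The 3 members that fell with the block were Ctss, Atp6v1h and Atp6v1c1. For Ctss the log2 difference was -0.77 ± 0.20 with the block (edgeR adjusted p = 0.003, and 0.34 without it), and both FruArg+LPS libraries were below both LPS libraries. Atp6v1h differed by -0.52 ± 0.19 with the block (edgeR adjusted p = 0.049, and 0.42 without it). Atp6v1c1, the subunit C that ties V1 to V0, stood at 713 and 826 CPM in LPS and 476 and 589 in FruArg+LPS, without overlap (-0.53 ± 0.19 with the block, edgeR adjusted p = 0.04, and 0.41 without it). In this comparison 7 of the 8 V1 members had negative log2 differences and 5 of the 6 V0 members positive ones. Tfeb differed by 0.87 ± 0.62 (edgeR adjusted p = 0.55) and Tfe3 by 0.25 ± 0.28 (edgeR adjusted p = 0.71), so neither passed.

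Compared with Control, Atp6v0d2, Tfeb and Lgmn were lower in both co-treated groups as in LPS alone, and the comparisons share the Control libraries, so they are set side by side only. Atp6v0d2 had a log2 fold change of -3.12 ± 0.28 in AGE+LPS (edgeR adjusted p = 1.3e-04) and -3.35 ± 0.29 in FruArg+LPS (edgeR adjusted p = 2.7e-04), beside -3.12 in LPS. Tfeb had -1.64 ± 0.43 in AGE+LPS (edgeR adjusted p = 0.027) and -2.01 ± 0.40 in FruArg+LPS (edgeR adjusted p = 0.0093), beside -2.87 in LPS. Lgmn had -1.66 ± 0.21 in AGE+LPS (edgeR adjusted p = 7.9e-04) and -1.04 ± 0.20 in FruArg+LPS (edgeR adjusted p = 0.008), beside -1.14 in LPS. These 3 genes were lower than in Control in both lanes of each LPS group.

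In AGE+LPS against Control, 1 member rose without the block, beside 10.5% of 12449 genes, and 5 fell, beside 9.25%. By the DEG rule the 3 that passed were Atp6v0d2, Lgmn and Tfeb, all lower, beside 7.41% of all genes. The other decreases were Scarb2 (-0.83 ± 0.18, edgeR adjusted p = 0.013) and Atp6v0a1 (-0.63 ± 0.19, edgeR adjusted p = 0.043). The increase was Atp6v0b (0.79 ± 0.24, edgeR adjusted p = 0.045). With the block 10 rose, beside 20.2% of all genes, and 11 fell, beside 18.5%. In the fit of all 8 libraries with the block 6 rose and 10 fell, beside 3901 of 12873 genes in either direction. Among them Lamp1 fell by 0.74 (SE 0.16, edgeR adjusted p = 1.7e-04, and 0.06 without the block). Ctsz (0.64), Gaa (0.52), Atp6v0d1 (0.46) and Npc2 (0.44) rose with the block, none of them without it. Tfe3 differed by -0.11 ± 0.23 (edgeR adjusted p = 0.79). The members' median was -0.03, beside 0.01 for all genes, but its sign was not stable, with values from -0.13 to 0.07 when 1 library was left out. Within lanes 17 were higher in both lanes, 21 lower in both and 7 mixed. Scaling by library size moved the median of all genes to -0.24, and then 0 members rose by edgeR, beside 7.41% of all genes, and 8 fell, beside 15.3%.

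In FruArg+LPS against Control, 7 members rose without the block, beside 12.8% of 12038 genes, and 3 fell, beside 9.59%. By the DEG rule 4 members rose (Atp6v0b, Atp6v0c, Npc2 and Gaa), beside 9.59% of all genes, and 3 fell (Atp6v0d2, Tfeb and Lgmn), beside 7.84%. Atp6v0b rose by 1.28 ± 0.24 (edgeR adjusted p = 0.0077), to libraries that overlapped with those of LPS. Atp6v0c rose by 1.18 ± 0.33 (edgeR adjusted p = 0.034) and Npc2 by 1.14 ± 0.20 (edgeR adjusted p = 0.0054). Gaa rose by 1.03 ± 0.19 (edgeR adjusted p = 0.0076) and Ctsz by 0.96 ± 0.23 (edgeR adjusted p = 0.019). The remaining increases were Ctsa, the protective protein of beta-galactosidase, at 0.74 ± 0.20 (edgeR adjusted p = 0.03), and the small V0 subunit Atp6v0e at 0.71 ± 0.19 (edgeR adjusted p = 0.032), both named after their values were seen. In the V0 sector 3 of 6 members thus rose and 1 fell.

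With the block 14 members rose in FruArg+LPS against Control, beside 18.9% of all genes, and 4 fell, beside 15.5%. The added decrease was Atp6v0a1 (-0.59 ± 0.17, edgeR adjusted p = 0.012, and 0.086 without the block). Tfe3 differed by 0.26 ± 0.25 (edgeR adjusted p = 0.49), a direction that turned to -0.14 with library size scaling. The members' median was 0.27, beside 0.00 for all genes, and 0.10 without Control replicate 1 and 0.16 without FruArg+LPS replicate 2. Within lanes 28 were higher in both lanes, 12 lower in both and 5 mixed. Scaling by library size moved the median of all genes to -0.40 and that of the members to -0.14, and then 3 members rose, beside 7.61% of all genes, and 6 fell, beside 22%.

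Single Control libraries carried several of these calls. In AGE+LPS against Control, 3 of the 6 called members passed without Control replicate 1 and 3 without Control replicate 2, in each case Atp6v0d2, Lgmn and Tfeb. In FruArg+LPS against Control, 6 of 10 passed without Control replicate 1, which ended the call of Tfeb among others, and 5 without Control replicate 2, which ended those of Atp6v0c and Gaa among others. Ctsz, Ctsa and Atp6v0e passed in neither of these fits.

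The comparison of FruArg+LPS with AGE+LPS is the direct test of whether compound and extract differ. By edgeR without the block none of the 45 was a DEG, and 0% of all 11915 genes were. In that count of 0, 7 members had an unadjusted p below 0.05, beside 5.61% of all genes, and DESeq2 called 0 members and 0 of 20504 genes. With the block 6 members were higher in FruArg+LPS, beside 2.23% of all genes, and 0 were lower, beside 0.965%. For that last count of 0 by edgeR, DESeq2 also called 0, and all 45 had an adjusted p of at least 0.84 without the block. The members' median log2 difference was 0.23, beside -0.02 for all genes. Within lanes 29 members were higher in both lanes, 3 lower in both and 13 mixed, with no lane count made over all genes. Scaling by library size moved the median of all genes to -0.15 and that of the members to 0.10.

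The 6 members were the V0 proteolipid Atp6v0c, the membrane proteins Cd68 and Scarb2, and Psap, Grn and Npc2 of the lipid group. Cd68, a heavily glycosylated protein of macrophage lysosomes (chr11:69664213-69666153, minus strand), stood at 356 and 477 CPM in Control, 542 and 563 in LPS, 357 and 376 in AGE+LPS, and 612 and 627 in FruArg+LPS. The FruArg+LPS libraries were the highest of the 8, and those of AGE+LPS lay within the Control range. Its log2 difference with the block was 0.75 ± 0.17 (edgeR adjusted p = 0.017). Atp6v0c differed by 1.01 ± 0.20 (edgeR adjusted p = 0.009, with the block), although its groups overlapped, since replicate 1 was higher than replicate 2 in each. Psap differed by 0.75 ± 0.19 (edgeR adjusted p = 0.037), Scarb2 by 0.69 ± 0.16 (edgeR adjusted p = 0.024), Grn by 0.69 ± 0.18 (edgeR adjusted p = 0.04) and Npc2 by 0.68 ± 0.18 (edgeR adjusted p = 0.039), each with the block and without overlap between the groups. Without the block all 6 had an edgeR adjusted p of 0.84. Tfeb (-0.38 ± 0.63) and Tfe3 (0.36 ± 0.29) did not pass, and the sign for Tfeb turned to 0.44 without AGE+LPS replicate 1.

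Summed over roles, the levels followed the same lines. The 6 lipid genes summed to 6368 and 7228 CPM in Control, 9781 and 8811 in LPS, 5622 and 5720 in AGE+LPS, and 8264 and 8938 in FruArg+LPS. The AGE+LPS sums were below all others, and those of FruArg+LPS overlapped with LPS. The 5 membrane proteins summed to 2391 and 2523 CPM in Control, 2634 and 2979 in LPS, 1907 and 2016 in AGE+LPS, and 2522 and 2569 in FruArg+LPS, again with AGE+LPS lowest. The 8 V1 subunits summed to 4113 and 4892 CPM in Control, 5585 and 6335 in LPS, 4122 and 5028 in AGE+LPS, and 4459 and 5067 in FruArg+LPS, so both LPS libraries were the highest. The 6 V0 subunits summed to 1295 and 1352 CPM in Control, 1808 and 1442 in LPS, 1812 and 1520 in AGE+LPS, and 2345 and 1816 in FruArg+LPS. The FruArg+LPS libraries held the highest V0 sums, and replicate 1 exceeded replicate 2 in the 3 groups with LPS. FruArg+LPS replicate 1, the highest, was also the library with the fewest genes detected. The cathepsins and Lgmn summed to between 18143 and 22671 CPM over the 8 libraries, and the glycosidases to between 1988 and 2405 CPM.

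Other genes of the lysosome gave a context for the 45. In LPS against Control 16.3% of all genes rose and 14.3% fell without the block. These shares stand beside each list count here and in the next paragraph. Of 34 other lysosomal hydrolases 33 were tested, and 5 rose and 11 fell, with a median log2 fold change of -0.21. The phosphatase Acp5 rose (edgeR adjusted p = 4.0e-04), from 0.311 and 0.0936 CPM in Control to 12.7 and 6.43 in LPS. Both Control values lie below 3 counts, so no fold is given. Hgsnat rose by 0.92 ± 0.27 (edgeR adjusted p = 0.029). The sulfatases Arsb (-2.10 ± 0.29, edgeR adjusted p = 7.0e-04) and Sgsh (-2.41 ± 0.61, edgeR adjusted p = 0.016) fell the most. Of 22 other lysosomal membrane proteins and channels 8 rose and 5 fell, from the peptide transporter Slc15a3 (3.59 ± 0.26, edgeR adjusted p = 2.8e-05) and the channel Mcoln2 (2.71 ± 0.25, edgeR adjusted p = 8.0e-05) to Mcoln3 (-1.68 ± 0.27, edgeR adjusted p = 0.0014) and Tpcn1 (-1.97 ± 0.23, edgeR adjusted p = 2.9e-04). Mcoln1, the member of that channel family among the 45, differed by -0.00 ± 0.22 (edgeR adjusted p = 0.99).

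Of 12 other V-ATPase subunits and assembly factors 5 were tested, and Tcirg1 alone passed. Of the 7 not tested, Atp6v0a4 and Atp6v1b1, known from kidney, were among those at 0 in all 8 libraries. Of 9 genes of mannose 6-phosphate sorting, which brings hydrolases to the lysosome, the receptor M6pr rose (1.24 ± 0.20, edgeR adjusted p = 0.0017) and Gnptab, whose product makes the tag, fell (-1.58 ± 0.21, edgeR adjusted p = 5.2e-04). A further list held related factors and genes that control TFEB and TFE3. Of its 14 genes tested, the related factor Tfec rose, and the Rag GTPase Rragd (-1.18 ± 0.28, edgeR adjusted p = 0.011) and Lamtor2 (-0.81 ± 0.23, edgeR adjusted p = 0.027) fell. Of 14 autophagy genes 3 rose, the receptors Sqstm1 (2.71 ± 0.27, edgeR adjusted p = 1.2e-04) and Optn (1.42 ± 0.29, edgeR adjusted p = 0.0053) the most, and 0 fell (0 also by the block fit). Of 3 cystatins, inhibitors of cathepsins, Cstb rose (0.81 ± 0.23, edgeR adjusted p = 0.025). Of 7 genes of MHC class II and its loading 3 were tested and Cd74 passed, while H2-Aa and H2-Eb1 were at 0 in all 8 libraries.

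In AGE+LPS against LPS none of these other lists held a gene that passed by edgeR without the block, beside 98 of 12317 genes. With the block 19.3% of all genes rose and 21.0% fell, and these shares stand beside each list count below. With the block 3 of the other hydrolases rose and 11 fell, with Hgsnat (-1.16 ± 0.10, edgeR adjusted p = 2.7e-18) and the collagen-degrading Ctsk (-0.89 ± 0.10, edgeR adjusted p = 3.3e-12) lowest and Dnase2a (0.72) and Pla2g15 (0.60) highest. Of the other V-ATPase genes 1 rose and 1 fell with the block: Wdr7 was higher (0.33), and Tcirg1 fell with the block by 0.83 (SE 0.10, edgeR adjusted p = 2.2e-12). Of the related factors and genes that control TFEB and TFE3, 3 rose and 2 fell with the block. Rragd (1.30 ± 0.15, edgeR adjusted p = 3.5e-12) and Lamtor2 (0.84 ± 0.14, edgeR adjusted p = 1.5e-07) rose the most, and Fnip2 (-0.40) and Rragc (-0.30) fell. Of the other membrane proteins 4 rose and 8 fell with the block, of the sorting genes 2 rose and 2 fell, and of the cystatins 2 fell. Of the autophagy genes 5 fell with the block and 0 rose (0 also without it), with Gabarapl1 (-0.96 ± 0.10, edgeR adjusted p = 6.0e-14) and Map1lc3a (-0.81 ± 0.12, edgeR adjusted p = 8.7e-09) lowest.

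The promoters of the members were searched for the E-box that TFEB and TFE3 are known to bind. They are shown because these factors are the regulators among the 45. Shares of the members are set beside those of all genes with a promoter, expressed here or not, and the difference was not tested. RefSeq promoters (GRCm38.p6, from 250 bases before to 50 after the start) were matched for 36 of the 45. The motif CACGTG, which reads the same on both strands, was found in 14 of the 36 (38.9%), beside 2187 of 27025 genes (8.09%). The longer TCACGTG, searched on both strands and containing the shorter motif, was found in 13 of the 36 (36.1%), beside 1160 genes (4.29%). By role it was in 3 of 5 V0 genes, 1 of 4 V1 genes, 3 of 7 cathepsins and legumain, 4 of 7 glycosidases and 2 of 5 membrane proteins, and in 0 of 4 lipid genes, 0 of 2 accessory genes and 0 of 2 factor genes with a promoter in the table. A match describes letters in the window and shows no binding, and an absent match says nothing about the factors.

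Genes with the motif went in different directions in LPS: Atp6v0b and Gla rose, Lgmn fell, and Gaa, Ctsd, Lamp1 and Mcoln1 did not pass without the block. The 7 windows below hold TCACGTG in capitals with 10 bases on either side, 1 match each from some of the members whose levels are given above. Atp6v0d1, among others, also holds the motif, and Lamp1, Gla, Mcoln1 and Atp6v0b hold further matches. Each reads 5′ to 3′ on the strand given: Atp6v0b at chr4:117887350-117887376 (minus), Lgmn at chr12:102439126-102439152 (minus), Gla at chrX:134601184-134601210 (minus), Gaa at chr11:119267812-119267838 (plus), Ctsd at chr7:142387910-142387936 (minus), Lamp1 at chr8:13159089-13159115 (plus) and Mcoln1 at chr8:3500463-3500489 (plus).
Atp6v0b: tgcgcgggggTCACGTGgggtcggcgc
Lgmn: ggaatgtctgTCACGTGgtccatttta
Gla: gagatctcggTCACGTGagcaactctc
Gaa: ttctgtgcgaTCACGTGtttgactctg
Ctsd: cgcccgcgtcTCACGTGacccgttgag
Lamp1: gggcaagataTCACGTGgtccagcgcc
Mcoln1: ggcgccccgcTCACGTGaccgcggcgc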

How the data were processed

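The authors counted single-end reads per Ensembl gene with featureCounts on GRCm38, per the labels, and deposited the raw counts, which were used as given. Starting from all 46078 genes, each pair of groups (4 libraries) was fitted with edgeR 4.0.16 in R 4.3.3, using filterByExpr, TMM scaling, the quasi-likelihood F-test and Benjamini-Hochberg adjustment over all genes tested. Alternatives were DESeq2 1.42.0, RLE or library size scaling, other count filters, all 8 libraries in one fit, each library left out, and the replicate number as a block. The number marks a shared lane per the labels, and differences between replicates 2 and 1 correlated between groups across 12873 genes (r from 0.244 to 0.628). Log2 ratios within lanes used CPM plus 1. Exon lengths and overlaps are from GENCODE M21. Members and lists were chosen with earlier results of these data known. Full statistics are given for up to 5 members per direction and comparison with an adjusted p below 0.05 with or without the block, for Tfeb and Tfe3, for some further members named after their values were seen, and for 2 genes per direction of the other lists. The fits were tested on simulated data. Figures used matplotlib 3.10.9 in Python 3.11.15.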

Additional observations from a re-analysis of the deposited data

Results flagged for a closer look

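With the replicate block, 6 members were higher in FruArg+LPS than in AGE+LPS by the test of the difference itself, beside 2.23% of all genes. The log2 difference, FruArg+LPS minus AGE+LPS, was 1.01 for Atp6v0c, 0.75 for Psap, 0.69 for Grn, 0.68 for Npc2, 0.69 for Scarb2 and 0.75 for Cd68. Without the block none of these 6 differences passed by edgeR (adjusted p = 0.84 for each), and 0 passed by DESeq2. In that edgeR fit 7 of the 45 members had an unadjusted p below 0.05, beside 5.61% of all genes. What underlies these differences was not tested, and the doses of AGE and FruArg were not matched for FruArg.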

How the results depend on the processing

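Each group has 2 libraries, so every test leans on the spread pooled over genes, and a left-out library leaves a lone one that is assumed to vary like the others. Control replicate 1 is shallow, with 2707500 counts. Weakly expressed members rest on few counts: Tfeb held 48 in that library and 16 and 18 in the LPS libraries. Whether depth limited the calls was not tested. Of 1926 values of single genes under alternatives, 1607 kept direction and side of the threshold, 249 newly passed, 57 no longer passed and 13 changed sign. The cause of the shifts was not tested.

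With the replicate block and the minimum on the fold change, DEGs among the members were 3 in AGE+LPS against LPS and 1 in FruArg+LPS against AGE+LPS (0 and 0 without the block). Over all genes these were 1199 of 12317 and 107 of 11915 (98 and 0 without the block). The other 4 comparisons kept their count of DEGs among the members with the block. The block with no minimum was a setting chosen after seeing the data. With it 23 members passed in LPS against Control (6163 of 12888 genes) and 28 in AGE+LPS against LPS (4961 of 12317). In FruArg+LPS against LPS 5 passed (2123 of 12071), and in AGE+LPS against Control 21 (4824 of 12449). In FruArg+LPS against Control 18 passed (4137 of 12038), and in FruArg+LPS against AGE+LPS 6 (381 of 11915). All 8 libraries in one fit gave 2 DEGs among the members in AGE+LPS against LPS (376 of 12873 genes), also 2 with the replicate block (895). With the replicate block that fit gave 1 in FruArg+LPS against AGE+LPS (151 of 12873 genes).

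In brackets are the counts over all genes. DEGs among the members in LPS against Control numbered 7 (2918). They were 4 with library size scaling (3598) and 11 with no minimum on the fold change (3945). Those in FruArg+LPS against Control numbered 7 (2098), but 3 with library size scaling (2644). Those in AGE+LPS against Control numbered 3 (1873), but 6 with no minimum (2456). In AGE+LPS against LPS, 2 passed by DESeq2 (531) and 2 with a filter of at least 1 count (927), in place of 0 (98). Leaving out 1 library gave 5 to 8 in LPS against Control, 0 to 2 in AGE+LPS against LPS, 0 to 1 in FruArg+LPS against LPS, 3 to 4 in AGE+LPS against Control, 5 to 7 in FruArg+LPS against Control and 0 to 1 in FruArg+LPS against AGE+LPS.

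Some differences, none of which passed without the replicate block, changed sign, and the cause was not tested. In LPS against Control, Tfe3 (0.03) turned to -0.39 with library size scaling, -0.01 with all 8 libraries in one fit, -0.00 in that fit with the replicate block, -0.04 without Control replicate 2 and -0.01 without LPS replicate 2. Library size scaling also turned Atp6v1e1 to -0.06 and Ctsa to -0.00, and Naglu became 0.00 without LPS replicate 2. In AGE+LPS against LPS, Tfe3 turned to 0.03 with library size scaling, and without LPS replicate 2 Ctsc turned to 0.02 and Lamp2 to 0.05. Tfe3 turned to -0.14 in FruArg+LPS against Control with library size scaling, and Tfeb to 0.44 in FruArg+LPS against AGE+LPS without AGE+LPS replicate 1. Over the fits with 1 library left out, these values ran from -0.04 to 0.09 for Tfe3 and from -0.80 to 0.00 for Naglu in LPS against Control, from -0.54 to 0.02 for Ctsc and from -0.70 to 0.05 for Lamp2 in AGE+LPS against LPS, and from -0.89 to 0.44 for Tfeb in FruArg+LPS against AGE+LPS.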
